A study of Homo sapiens with 24 samples.

Results

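The cornified envelope genes followed here were SPRR1A, SPRR1B, SPRR2A, SPRR2D, SPRR2E, SPRR3, IVL, CASP14, CNFN and TGM1. They were chosen by their known place in squamous differentiation together with the level and the response to Ocoxin measured in these same libraries, so their levels and their differences are given as a description. Calls of members support nothing. They stand beside the share of all genes called, except under alternative settings, for which that share was not computed. The 10 symbols were matched to Ensembl identifiers and make up 10 of the 58051 genes counted. The libraries came from 4 human cancer cell lines, each 1 established line: SW620 for colon adenocarcinoma (COAD), BxPC-3 for pancreatic adenocarcinoma (PAAD), LNCaP for prostate adenocarcinoma (PRAD) and HCC-70 for triple negative breast cancer (TNBC). Each line gave 3 control and 3 Ocoxin libraries of polyA RNA. Ocoxin is a nutritional supplement that holds green tea, licorice and cinnamon extracts with amino acids, vitamins and minerals. It was given for 48 h in RPMI-1640 medium with 1% serum, diluted 1:700 in COAD and TNBC, 1:500 in PAAD and 1:50 in PRAD, so the dose differed between lines. Each dilution had been chosen by the study from the viability of that line. The labels write the dilution on control libraries too, and the letters C and O of the titles set the groups. Nothing stated that libraries of 1 group came from separate cultures, so p-values measure the spread between these libraries, which may be technical.

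The cornified envelope is the protein shell that a keratinocyte builds under its plasma membrane at the end of its life. Involucrin and the small proline-rich (SPRR) proteins are its precursors, and transglutaminases join them by crosslinks that detergents cannot open. Most of the precursors are encoded side by side in the epidermal differentiation complex of chromosome 1. The program is typical of stratified squamous epithelia such as epidermis and oral mucosa, and carcinomas of other tissues can switch on parts of it.

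The members sit in 4 places of the genome (hg38, coordinates of the count tables). SPRR1A (chr1:152985231-152985500, plus strand), SPRR3 (chr1:153001747-153003856, plus), SPRR1B (chr1:153031202-153032900, plus), SPRR2D (chr1:153039725-153041931, minus), SPRR2A (chr1:153056113-153057537, minus) and SPRR2E (chr1:153093135-153106184, minus) follow IVL (chr1:152908545-152911886, plus) within the complex. CASP14 (chr19:15049384-15058293, plus) and CNFN (chr19:42387019-42390287, minus) lie far apart on chromosome 19, and TGM1 (chr14:24249114-24264432, minus) lies on chromosome 14. No exon of a member overlapped another gene in the tables. The SPRR1A entry covered 270 bases, less than the transcript of the gene, so its counts came from part of its reads.

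Promoter sequences from RefSeq (GRCh38.p14) matched 7 of the 10 members, with no entry for SPRR2D, SPRR2E or TGM1. The letters TGAGTCA, the classic binding motif of the AP-1 factors, stood on either strand within 250 bases before the start in 6 of these 7 promoters, and in 4.2% of 35116 promoters of the same length. The 41 bases around the motif are shown for these 6 genes because the AP-1 subunits are among the regulators described below, each 5′ to 3′ along its gene with the motif in capitals:

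SPRR1A: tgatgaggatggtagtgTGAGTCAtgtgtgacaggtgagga
SPRR1B: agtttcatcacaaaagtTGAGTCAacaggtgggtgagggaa
SPRR2A: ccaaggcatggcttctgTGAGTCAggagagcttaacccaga
SPRR3: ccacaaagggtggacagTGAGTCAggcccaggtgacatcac
IVL: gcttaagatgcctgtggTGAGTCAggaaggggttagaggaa
CASP14: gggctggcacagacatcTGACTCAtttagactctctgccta

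The first base of the motif lay at -108 from the start in SPRR1A, -141 in SPRR1B, -197 in SPRR2A, -170 in SPRR3, -123 in IVL and -190 in CASP14, where it reads on the opposite strand. The windows are chr1:152983956-152983996 for SPRR1A, chr1:153031045-153031085 for SPRR1B, chr1:153057686-153057726 for SPRR2A (minus strand), chr1:153001562-153001602 for SPRR3, chr1:152908406-152908446 for IVL and chr19:15049273-15049313 for CASP14. The TATA box letters TATAAA were found in SPRR1A, SPRR2A, SPRR3 and IVL, each with the first base at -29 or -30, against 10.7% of all promoters. The involucrin promoter (chr1:152908296-152908545) shows both motifs in capitals in the 250 bases before its start:

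IVL: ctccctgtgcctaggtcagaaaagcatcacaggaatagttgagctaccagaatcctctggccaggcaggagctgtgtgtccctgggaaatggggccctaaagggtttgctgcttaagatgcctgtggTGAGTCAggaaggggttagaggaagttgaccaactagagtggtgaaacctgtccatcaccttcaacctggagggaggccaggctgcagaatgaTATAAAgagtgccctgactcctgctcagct

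Among 4 other motifs searched on both strands, CACCC (a KLF motif) stood in 6 of the 7 promoters and in 54.7% of all. TGACNNNGC (the antioxidant response element, whose letters can overlap AP-1) stood in CNFN alone of the 7 and in 10.9% of all, and GCGTG (the xenobiotic response core) also in CNFN alone and in 32.2% of all. AACCGGTT (a GRHL motif) was in none of the 7 and in 0.117% of all. A match is a stretch of letters and not a measured binding site.

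The libraries held 25160757 to 34397801 counts in COAD, 31101178 to 34231106 in PAAD, 9063968 to 9520969 in PRAD and 36863490 to 39009959 in TNBC. A read pair could give 2 counts in COAD, PAAD and TNBC, whereas the PRAD table was counted without the paired-end option, so levels of PRAD were not set against the other lines. The lines matched most of their tissue markers: VIL1 was 526 CPM and LGR5 144 CPM in COAD controls (CDX1 was near 0), CEACAM6 was 1306 CPM in PAAD, KLK3 was 403 CPM in PRAD, and KRT5 was 1600 CPM in TNBC with PGR at 0. Of the basal markers of TNBC, KRT5 (3133 against 1600 CPM), KRT17 (2344 against 262 CPM) and EGFR (596 against 500 CPM) were higher in PAAD than in TNBC controls. KRT14 (101 against 23.8 CPM) and FOXC1 (113 against 68.9 CPM) were higher in TNBC than in PAAD controls. Of the receptors whose protein defines TNBC by its absence, ERBB2 was 248 CPM and ESR1 6.85 CPM in TNBC controls. This ESR1 level was above those of COAD and PAAD controls. The PAAD markers KRT19 (1530 against 1292 CPM) and MUC1 (311 against 88.1 CPM) were higher in TNBC than in PAAD controls.

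Control cells of PAAD and TNBC expressed different members. PAAD carried the SPRR genes with little involucrin and no CASP14 count, and TNBC carried CASP14, IVL and CNFN with hardly any SPRR count. COAD held 0 counts in all 6 libraries for 8 of the 10 members, which allows up to 0.0960 CPM by 3 counts in its smallest control library, a limit of counting error only. Levels are given as CPM, counts scaled to the TMM-corrected total of each library within its line.

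**Figure D1:**
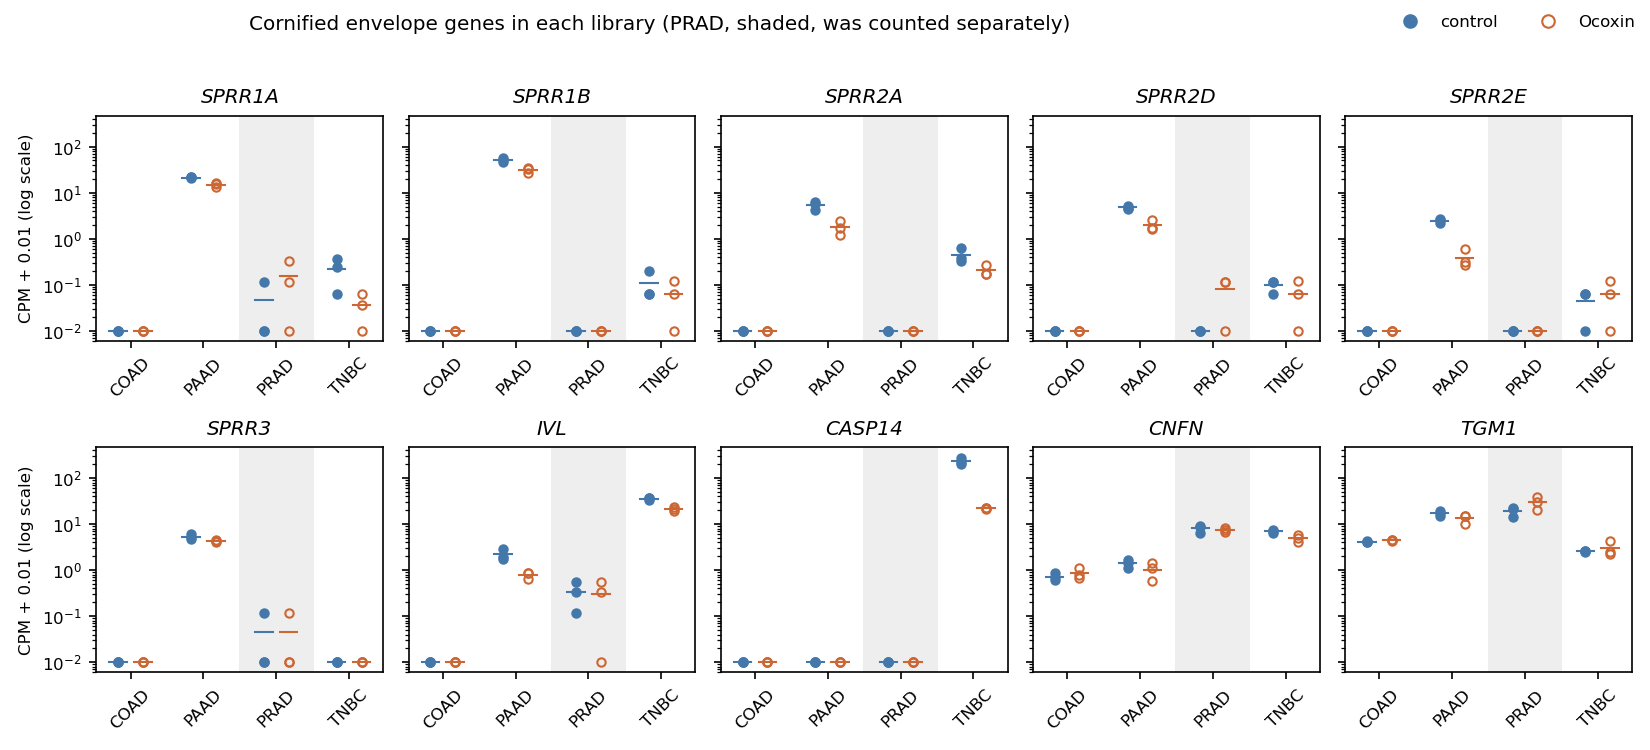
Level of each of the 10 members in every library, as CPM plus 0.01 on a log axis, with 3 control (filled) and 3 Ocoxin (open) libraries per line and a dash at the mean. A point at the bottom is a library with 0 counts, CASP14 shows this in every line but TNBC, and the SPRR genes stand high in PAAD alone.

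Per kilobase of exon, the order in PAAD controls was led by SPRR1B at 83.0 ± 6.75 and SPRR1A at 78.6 ± 1.42 CPM per kb (SD, n = 3), which overlapped. SPRR2A followed at 7.47 ± 1.40, above all libraries of the next gene. TGM1 at 4.62 ± 0.534 and SPRR2D at 4.51 ± 0.306 overlapped, as did SPRR3 at 3.72 ± 0.389 and SPRR2E at 3.35 ± 0.293 CPM per kb. CNFN at 2.31 ± 0.444 and IVL at 1.01 ± 0.300 CPM per kb closed the order, and each stood apart from its neighbours. SPRR1A was scaled to its 270-base entry, which is shorter than its transcript, so its place here and in TNBC is uncertain.

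In TNBC controls CASP14 led at 66.2 ± 11.7 CPM per kb, followed by IVL at 16.5 ± 1.07 and CNFN at 11.7 ± 0.714, each apart from the next (SD, n = 3). SPRR1A, TGM1 and SPRR2A came next, between 0.784 and 0.619 CPM per kb, and their libraries overlapped. SPRR1B, SPRR2D and SPRR2E were lower still, and SPRR3 had no count. In COAD only CNFN (1.18 ± 0.194 CPM per kb) and TGM1 (1.10 ± 0.0289) were counted, with overlapping libraries. In PRAD, within its own table, CNFN at 13.5 ± 2.47 stood above TGM1 at 5.18 ± 1.12 CPM per kb, and IVL at 0.150 ± 0.0981 was next.

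CASP14 differed most between lines: the control level of TNBC was 2471-fold the 3-count floor of PAAD, which is no firm upper limit for PAAD. IVL was 16.3-fold and CNFN 5.05-fold higher in TNBC than in PAAD controls. TGM1 was 6.73-fold higher in PAAD than in TNBC controls, and SPRR3 in PAAD controls was 67.2-fold the 3-count floor of TNBC. The 6 SPRR genes together gave 90.6 ± 5.41 CPM in PAAD controls and 0.870 ± 0.110 CPM in TNBC controls (SD, n = 3). These differences describe the lines that the genes were chosen on.

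After Ocoxin, most members that were expressed in PAAD and TNBC had lower levels. In PAAD 9 of the 10 members passed the filter on low counts, and edgeR's quasi-likelihood test called 6 of them lower at an adjusted p under 0.05, where 3.62% of the 17280 genes tested were called lower and 4.72% higher. In TNBC 5 of the 10 passed the filter and 3 were called lower, where 11.3% of 17352 genes were called lower and 9.65% higher. Because the choice of members used these contrasts, nothing is read from the counts. The median log2 fold change of the tested members was -0.73 in PAAD and -0.73 in TNBC, beside 0.00 and 0.01 over all genes tested. Libraries are bulk RNA, and fewer cells of a kind cannot be told apart from less RNA per cell.

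**Figure D2:**
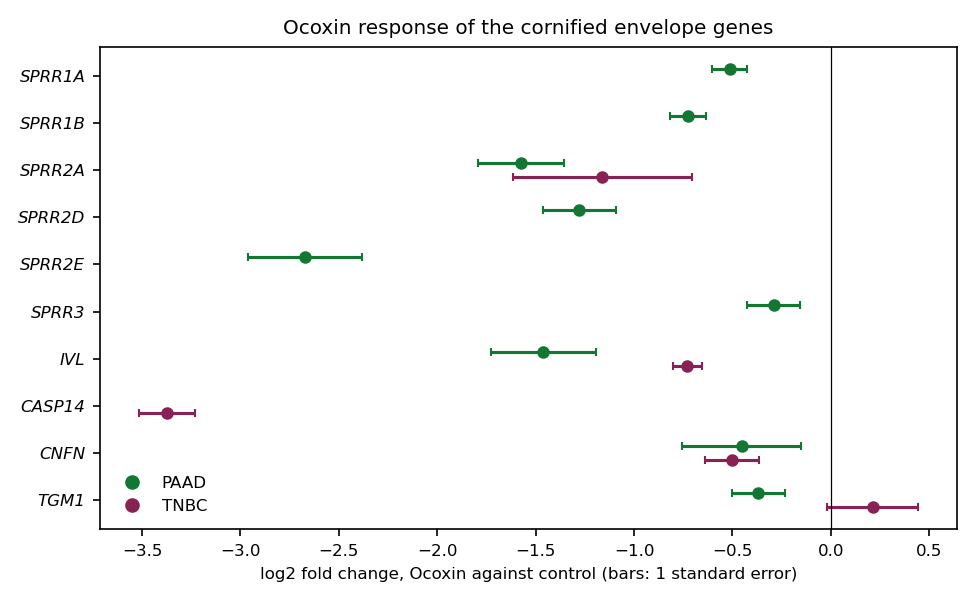
Log2 fold change of Ocoxin against control for each member that passed the filter, in PAAD (9 genes) and TNBC (5 genes), with bars of 1 standard error. All PAAD values lie below 0, from -0.29 for SPRR3 to -2.67 for SPRR2E, and CASP14 in TNBC lies lowest at -3.37. SPRR2E in PAAD and SPRR2A in TNBC passed the filter through their control counts.

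SPRR1B encodes a small proline-rich precursor known as cornifin. It had 1699, 1740 and 1585 counts in the PAAD control libraries and 828, 1124 and 1134 in the Ocoxin libraries. All 3 Ocoxin libraries lay below all controls. The level was 51.5 ± 4.18 CPM in controls and 31.1 ± 4.06 CPM with Ocoxin (SD, n = 3), a log2 fold change of -0.73 (SE 0.0914). Its neighbour and close relative SPRR1A had 697, 675 and 701 counts in controls and 408, 514 and 548 with Ocoxin. The groups did not overlap here either, at 21.2 ± 0.384 CPM in controls and 14.8 ± 1.54 CPM with Ocoxin, a log2 fold change of -0.52 (SE 0.0914). Over full transcripts, the pair shared 7.24% of the 50-base windows of SPRR1A and 8.25% of those of SPRR1B. Reads from these windows cannot be assigned to 1 of them. The counted entry of SPRR1A covers only 270 bases, so the shared part of its counted reads is not known.

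The SPRR2 genes, a tight family of near-identical precursors, showed larger differences in PAAD than the SPRR1 pair. SPRR2A had 200, 174 and 142 counts in controls and 52, 40 and 84 with Ocoxin, with all Ocoxin libraries lower. Its level was 5.29 ± 0.993 CPM in controls and 1.77 ± 0.613 CPM with Ocoxin, a log2 fold change of -1.57 (SE 0.218). SPRR2D had 146, 148 and 173 counts in controls and 50, 56 and 89 with Ocoxin, also without overlap, and its log2 fold change was -1.28 (SE 0.184). SPRR2E, the member with the lowest Ocoxin counts of the 3, had 82, 70 and 89 counts in controls and 8, 10 and 20 with Ocoxin. It went from 2.46 ± 0.215 CPM to 0.379 ± 0.174 CPM, a log2 fold change of -2.67 (SE 0.291). SPRR2E passed the filter through its control counts. It dropped out where at least 10 counts were required in every library.

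Reads of these 3 genes are uncertain, because 34.4% of the 50-base windows of SPRR2A, 19.4% of SPRR2D and 23.3% of SPRR2E occur in another SPRR2 gene and primary alignments of multi-mapping reads were counted. With all SPRR2 genes summed to 1 row, which no split of reads can alter, the log2 fold change was -1.58 in PAAD. The near-identical SPRR2F, which is no member and is named after its values were seen, had 40, 18 and 28 counts in PAAD controls and 8, 2 and 8 with Ocoxin. It passed the filter through its control counts, with a log2 fold change of -2.25. Its edgeR adjusted p was 0.00884, and 0.0531 without control replicate 1, and it had no adjusted p by DESeq2 or with at least 10 counts required in every library. Of the other SPRR2 genes, SPRR2B and SPRR2G had 0 to 2 counts in each PAAD library. SPRR2C also shares windows with the 3 members, and its counts are not given here.

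SPRR3, typical of oral and oesophageal epithelium, responded least among the SPRR genes of PAAD. It had 171, 188 and 164 counts in controls and 130, 152 and 151 with Ocoxin. The groups did not overlap, and the log2 fold change was -0.29 (SE 0.135). No 50-base window of SPRR3 occurs elsewhere. The sum of the 6 SPRR genes was 54.4 ± 6.25 CPM with Ocoxin, so that the control sum was 1.66-fold higher.

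IVL encodes involucrin, the early scaffold of the envelope. In TNBC it had 1416, 1251 and 1375 counts in controls and 858, 803 and 756 with Ocoxin. Each Ocoxin library lay below each control, at 35.5 ± 2.31 CPM in controls and 21.4 ± 1.77 CPM with Ocoxin, a log2 fold change of -0.73 (SE 0.0739). In PAAD the gene was scarce, with 62, 92 and 58 counts in controls and 20, 28 and 30 with Ocoxin. The groups were apart here as well, at 2.18 ± 0.646 and 0.785 ± 0.126 CPM, a log2 fold change of -1.46 (SE 0.267). The Ocoxin libraries of IVL were thus the lower ones in both lines, and the difference between its log2 fold changes was not tested.

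CASP14 encodes caspase-14, a protease of terminal keratinocyte differentiation that processes filaggrin rather than executing apoptosis. In TNBC it had 8438, 7568 and 10333 counts in controls and 846, 796 and 884 with Ocoxin. This was the largest difference of any member in any line, with a wide gap between the groups. The level was 232 ± 40.8 CPM in controls and 22.3 ± 0.807 CPM with Ocoxin, a log2 fold change of -3.37 (SE 0.143) that stayed between -3.47 and -3.23 over 13 alternative settings. CASP14 had 0 counts in all libraries of COAD, PAAD and PRAD. Of its 50-base windows, 0.0597% occur in another gene, so its counts are its own.

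CNFN encodes cornifelin, a small envelope component. In TNBC it had 253, 273 and 276 counts in controls and 216, 188 and 157 with Ocoxin. All Ocoxin libraries were lower, at 7.05 ± 0.430 CPM in controls and 4.98 ± 0.878 CPM with Ocoxin, a log2 fold change of -0.50 (SE 0.136). In PAAD the libraries overlapped, with 54, 44 and 38 counts in controls and 34, 46 and 20 with Ocoxin (log2 fold change -0.45, SE 0.304). CNFN was counted in all 4 lines. Its COAD libraries (26, 21 and 22 counts in controls, 20, 30 and 20 with Ocoxin) and its PRAD libraries (59, 81 and 85, then 68, 64 and 76) overlapped between the groups.

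TGM1 encodes transglutaminase 1, the membrane-bound enzyme that crosslinks the precursors, and was also counted in all lines. In PAAD it had 615, 561 and 508 counts in controls and 480, 483 and 350 with Ocoxin. On the CPM scale the groups overlapped, at 17.3 ± 1.99 in controls and 13.4 ± 2.85 with Ocoxin (log2 fold change -0.37, SE 0.135). In TNBC it had 100, 94 and 98 counts in controls and 90, 82 and 165 with Ocoxin, so 1 Ocoxin library carried the positive log2 fold change of 0.21 (SE 0.231). In PRAD the counts were 204, 200 and 133 in controls and 372, 280 and 183 with Ocoxin, with a log2 fold change of 0.63 (SE 0.253), but the groups overlapped. In COAD they were 131, 138 and 132, then 127, 124 and 116, also with overlap in CPM.

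In TNBC the crosslinking enzyme TGM1 overlapped between the groups, while its substrate IVL was lower in each Ocoxin library. SPRR2A was the only SPRR gene of TNBC to pass the filter, with 12, 24 and 14 counts in controls and 6, 6 and 10 with Ocoxin. All 3 Ocoxin libraries were lower, with a log2 fold change of -1.16 (SE 0.455), and the gene passed the filter through its control counts. With all SPRR2 genes summed to 1 row, the log2 fold change in TNBC was smaller, at -0.78. SPRR1A had 9, 2 and 13 counts in TNBC controls and 2, 1 and 0 with Ocoxin, SPRR1B had 2 to 7 and 0 to 4, SPRR2D had 2 to 4 and 0 to 4, and SPRR2E had 0 to 2 and 0 to 4. These 4 genes did not pass the filter on low counts.

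In COAD and PRAD only CNFN and TGM1 passed the filter. edgeR's quasi-likelihood test and DESeq2 each called 0 of the 2 in either line. At an unadjusted p under 0.05, 0 of 2 passed in COAD and 1 of 2 in PRAD. Over all genes 1.47% of 17659 were called higher and 1.09% lower in COAD, and 2.4% of 17070 were called higher and 0.58% lower in PRAD. The remaining members of PRAD had 0 to 5 counts per library, with IVL at 3, 5 and 1 in controls and 5, 0 and 3 with Ocoxin, and SPRR1B, SPRR2A, SPRR2E and CASP14 at 0 throughout.

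Along the epidermal differentiation complex the members were flanked by genes at or near 0 counts, the LCE genes before IVL and the genes from SPRR2G to LORICRIN after SPRR2E, with strongly expressed S100 genes at both ends. Of 59 genes listed there, including the S100 genes at both ends, 23 reached 1 CPM in PAAD controls and 14 in TNBC controls. The late envelope genes between IVL and the profilaggrin group, the LCE cluster, stayed below 1 CPM in both lines, and LORICRIN, which encodes the main protein of the mature epidermal envelope, had 0 counts in all 24 libraries. In PAAD 27 of the 59 genes were tested, members included, with 11 called lower and 0 called higher by edgeR. The 11 hold the 6 members called lower and SPRR2F, so nothing is read from this count. In TNBC 18 were tested, with 8 lower, IVL among them, and 1 higher. Over all genes tested, 3.62% were called lower and 4.72% higher in PAAD, and 11.3% lower and 9.65% higher in TNBC.

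**Figure D3:**
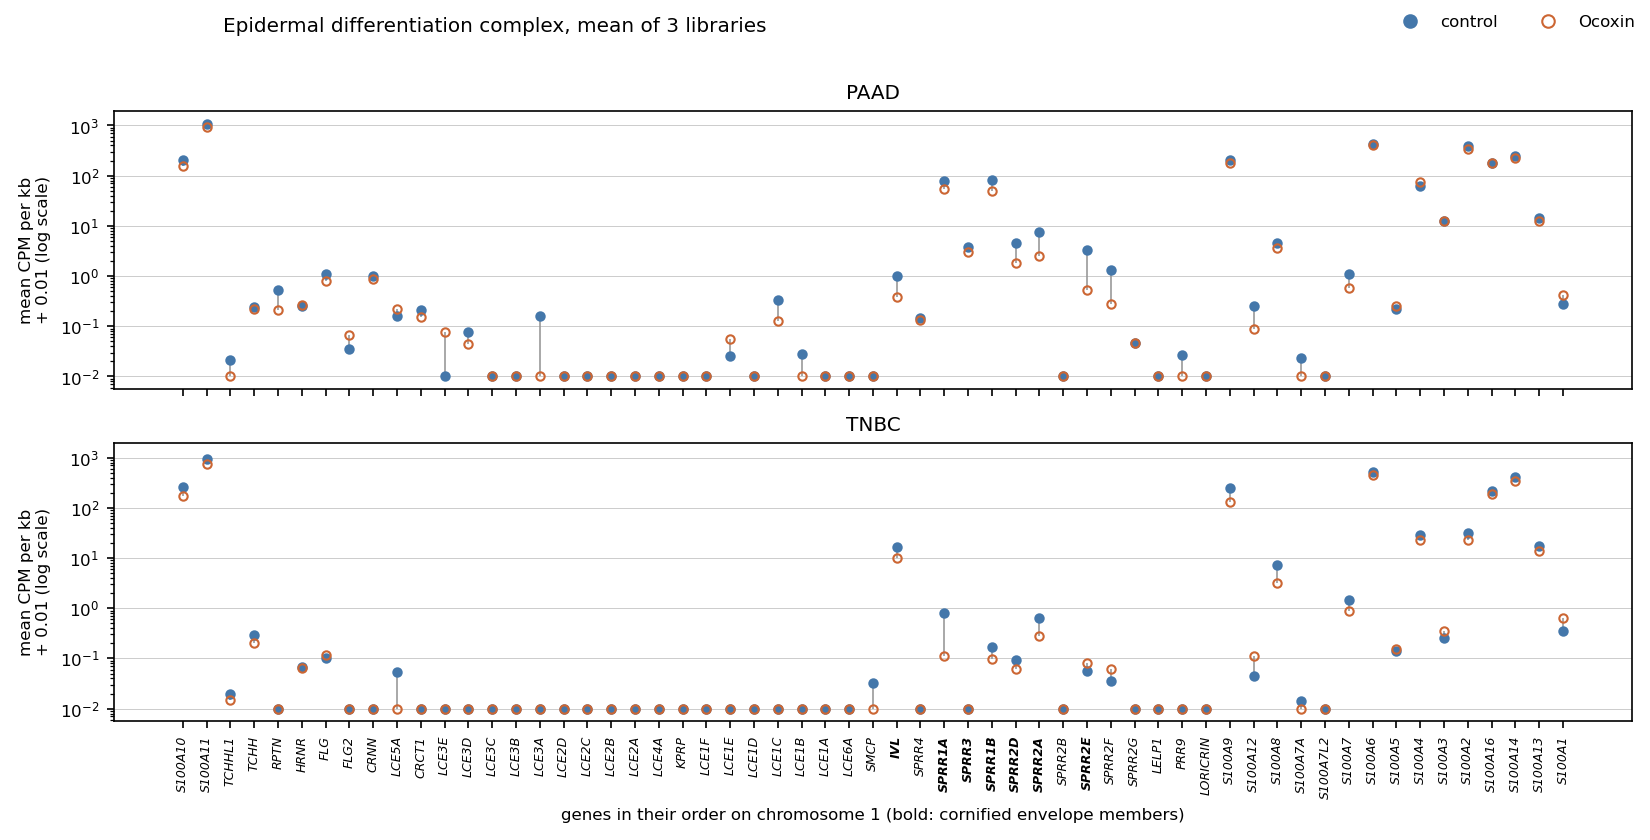
Genes of the epidermal differentiation complex in their order on chromosome 1, with the mean level of 3 control (filled) and 3 Ocoxin (open) libraries as CPM per kb plus 0.01 on a log axis, for PAAD and TNBC. The SPRR block is high in PAAD and near 0 in TNBC, IVL shows the reverse, and the LCE genes between them and the left end stay near 0 in both.

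Other genes of squamous differentiation, 165 in 6 lists none of which holds a member, were tested in the same fits. The lists were chosen with earlier results of these data known, so their calls and adjusted p are no independent support. In PAAD 110 passed the filter, and 13 were called higher and 27 lower, SPRR2F among them (24.5% of those tested, median log2 fold change -0.09). In TNBC 105 passed the filter, and 5 were called higher and 37 lower (35.2%, median -0.22). Over all genes tested, 4.72% were called higher and 3.62% lower in PAAD, and 9.65% higher and 11.3% lower in TNBC. These shares belong beside the list counts below as well. In COAD the shares were 1.47% higher and 1.09% lower, and in PRAD 2.4% higher and 0.58% lower. In COAD 11 of 87 were called higher and 0 lower by edgeR (25 at an unadjusted p under 0.05 in either direction, 0 lower by DESeq2), and in PRAD 2 of 78 higher and 0 lower (21 at an unadjusted p under 0.05, 1 lower by DESeq2). The genes called lower in both PAAD and TNBC were 10, out of 27 and 37: ANXA1, KRT14, KRT17, PI3, S100A10, SCEL, SERPINB5, SERPINB7, SLPI and UGCG. NOTCH1 was called higher in both.

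**Figure D4:**
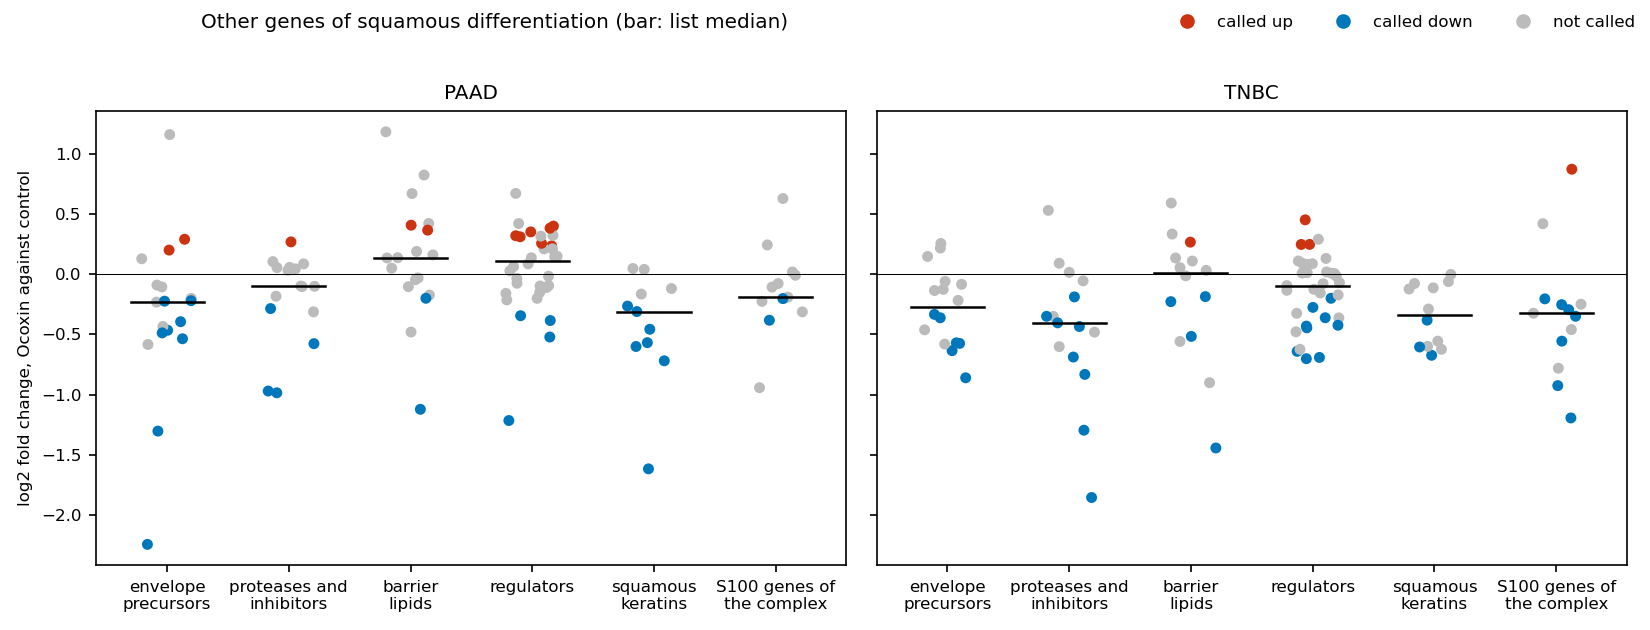
Log2 fold change of the other squamous genes that passed the filter in PAAD (110) and TNBC (105), by list, coloured by the edgeR call at an adjusted p under 0.05, with a bar at the list median. Points called lower reach -2.25 in PAAD (SPRR2F, which shares sequence with the SPRR2 members) and -1.86 in TNBC (SERPINB7). In either line 0 squamous keratins were called higher.

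Among other envelope precursors and linkers, 8 of 18 were called lower and 2 higher in PAAD by edgeR. The 8 include SPRR2F, which shares reads with the SPRR2 members and had no adjusted p by DESeq2. DESeq2 called 7 lower. In TNBC 6 of 16 were called lower and 0 higher by edgeR (8 at an unadjusted p under 0.05). SCEL, which encodes sciellin, fell by 0.54 on the log2 scale in PAAD (edgeR adjusted p = 3.90e-05) and by 0.86 in TNBC (adjusted p = 0.000717). In PAAD repetin (RPTN, -1.30, adjusted p = 0.00743) and filaggrin (FLG, -0.49, adjusted p = 0.0140) fell by edgeR, while the desmosomal linkers envoplakin (EVPL, 0.29, adjusted p = 0.0270) and periplakin (PPL, 0.20, adjusted p = 0.0305) rose. In TNBC SERPINB2 (-0.58, adjusted p = 0.000227) and suprabasin (SBSN, -0.64, adjusted p = 0.0452) fell by edgeR.

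Desquamation proteases and their inhibitors were called lower in 4 of 16 in PAAD, with 1 higher, and in 8 of 15 in TNBC, with 0 higher by edgeR. In PAAD the inhibitors SERPINB13 (-0.99, adjusted p = 1.86e-06), SPINK5 (-0.97, adjusted p = 5.19e-07) and SERPINB7 (-0.58, adjusted p = 0.00177) fell by edgeR, and the protease PRSS8 rose (0.27, adjusted p = 0.0466). In TNBC SERPINB7 (-1.86, adjusted p = 0.00151) and the kallikreins KLK7 (-1.30, adjusted p = 0.000146) and KLK8 (-0.83, adjusted p = 0.0362) fell by edgeR. Squamous keratins were lower in 7 of 11 in PAAD and 3 of 12 in TNBC, among them KRT4 (-1.62, adjusted p = 2.77e-08), KRT16 (-0.72, adjusted p = 0.00713) and KRT13 (-0.60, adjusted p = 6.86e-05) in PAAD and KRT17 (-0.67, adjusted p = 0.0148), KRT6A (-0.60, adjusted p = 0.00107) and KRT14 (-0.38, adjusted p = 0.00195) in TNBC by edgeR.

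S100 genes of the complex were lower in 2 of 13 in PAAD and 7 of 13 in TNBC. S100A10 fell in both (-0.38, adjusted p = 0.000269 in PAAD and -0.56, adjusted p = 1.43e-06 in TNBC, edgeR), S100A2 fell in PAAD (-0.20, adjusted p = 0.0391), and S100A8 (-1.19, adjusted p = 0.000949) and S100A9 (-0.93, adjusted p = 2.13e-05), the subunits of calprotectin, fell in TNBC, where S100A1 rose (0.87, adjusted p = 0.0456). Barrier lipid genes were divided, with 2 higher and 2 lower of 18 in PAAD and 1 higher and 4 lower of 14 in TNBC. By edgeR NIPAL4 (0.41, adjusted p = 0.0138) and SMPD1 (0.37, adjusted p = 0.0168) rose and SULT2B1 (-1.12, adjusted p = 0.0130) and UGCG (-0.20, adjusted p = 0.0333) fell in PAAD. In TNBC ABCA12 rose (0.27, adjusted p = 0.0276), and AQP3 (-0.52, adjusted p = 0.000778), UGCG (-0.23, adjusted p = 0.00588) and ELOVL1 (-0.19, adjusted p = 0.00251) fell by edgeR.

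The regulators of the program did not move in 1 direction with the members. Of 34 tested in PAAD 8 were called higher and 4 lower, and of 35 in TNBC 3 were higher and 9 lower. TP63, the master factor of squamous identity, was 395 CPM in PAAD controls and 385 CPM with Ocoxin (edgeR adjusted p = 0.737), and in TNBC, at 1.57 and 1.02 CPM, it had a log2 fold change of -0.62 that missed the threshold (edgeR adjusted p = 0.0773). KLF4 rose in PAAD (0.40, edgeR adjusted p = 0.000505) and was not called in TNBC (-0.13, adjusted p = 0.178). ZNF750, a factor of late differentiation, fell in PAAD from 9.78 ± 0.882 to 4.22 ± 0.951 CPM (-1.22, edgeR adjusted p = 0.000112) and was not called in TNBC (0.29, adjusted p = 0.0949). OVOL1 fell in TNBC (-0.64, edgeR adjusted p = 0.0151) and was not called in PAAD (0.32, adjusted p = 0.127), and GRHL3 was not called in either (adjusted p = 0.460 and 0.953).

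In PAAD VDR (0.38, adjusted p = 0.000582) and ELF3 (0.38, adjusted p = 0.00132) rose, and NOTCH3 (-0.52, adjusted p = 0.0235) and the Notch target HES1 (-0.38, adjusted p = 0.00161) fell by edgeR. In TNBC JAG1 (0.45, adjusted p = 3.22e-05), NOTCH3 (0.25, adjusted p = 0.000295) and NOTCH1 (0.25, adjusted p = 0.00367) rose by edgeR. The 7 AP-1 subunit genes, singled out after their values were seen, differed between the lines in their calls: FOSL1 and FOS were called in opposite directions, and FOSB in neither line. The difference between the lines was not tested. In PAAD FOSL1 (0.35, adjusted p = 0.00643), FOSL2 (0.31, adjusted p = 0.00222) and FOS (0.24, adjusted p = 0.0394) rose and none of the 7 had a log2 fold change below 0 by edgeR. In TNBC FOSL1 (-0.69, adjusted p = 0.0244), FOS (-0.45, adjusted p = 0.000454), JUN (-0.70, adjusted p = 0.000723), JUNB (-0.43, adjusted p = 0.000294) and JUND (-0.28, adjusted p = 0.00752) fell by edgeR and all 7 had values below 0. The part of these factors in the levels of the members was not tested.

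Several of these context calls were lost when 1 library was left out. In PAAD the calls of EVPL, PPL, FLG, PRSS8, NIPAL4, SMPD1, SULT2B1, UGCG, NOTCH3, S100A2 and FOS were each lost without Ocoxin replicate 2, with edgeR adjusted p up to 0.30 over all libraries left out. Calls were also lost without Ocoxin replicate 1 for all of these but SULT2B1 and NOTCH3, without Ocoxin replicate 3 for UGCG and S100A2, without control replicate 1 for EVPL, PPL, SULT2B1, UGCG, NOTCH3, S100A2 and FOS, without control replicate 2 for FLG, PRSS8, SMPD1, NOTCH3, S100A2 and FOS, and without control replicate 3 for PRSS8. In TNBC the calls of SBSN, KLK8, ABCA12, FOSL1 and S100A1 were each lost without control replicate 2, with edgeR adjusted p up to 0.237. They were also lost without control replicate 1 for SBSN, ABCA12 and FOSL1, without control replicate 3 for SBSN, KLK8 and S100A1, without Ocoxin replicate 1 for SBSN, KLK8, ABCA12 and S100A1, without Ocoxin replicate 2 for KLK8, ABCA12, FOSL1 and S100A1, and without Ocoxin replicate 3 for SBSN, KLK8 and ABCA12. OVOL1 reached an edgeR adjusted p of 0.052 without control replicate 1, and KRT17 up to 0.0543 without control replicate 2, without Ocoxin replicate 2 or with no filter. DESeq2 did not call SBSN or KLK8 in TNBC, and the fit of COAD, PAAD and TNBC together did not call EVPL, NIPAL4 and S100A2 in PAAD or SBSN, KLK8 and ABCA12 in TNBC.

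The genes whose level followed the mean profile of the 10 members most closely over the 18 libraries of COAD, PAAD and TNBC were FLRT3 (Pearson r = 0.985), MSMB (r = 0.983), BMT2 (r = 0.981), DENND10 (r = 0.981) and YBX3 (r = 0.981), out of 20825 genes ranked. FLRT3, a membrane adhesion protein gene, had mean levels of 37.8 CPM in PAAD controls and 22.3 CPM with Ocoxin, 6.17 and 5.74 CPM in TNBC, and 0.933 and 1.15 CPM in COAD. MSMB, which encodes a secreted microseminoprotein, had 5.27 and 2.42 CPM in PAAD. The points share line and library, and the order of the lines carries most of each r. The members differed among themselves: SPRR2A followed the mean profile at r = 0.964 and SPRR1A at r = 0.895, against r = 0.294 for IVL, 0.137 for CNFN and -0.022 for CASP14, so the profile is that of the PAAD-expressed SPRR genes.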

How the data were processed

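The deposited values were whole read counts per gene, without normalization, for 6 PRAD libraries in one table and 18 COAD, PAAD and TNBC libraries in another. The authors used fastp for trimming, STAR for alignment on hg38 and picard for duplicates, and counted primary alignments on exons with featureCounts 2.0.3, unstranded. DESeq2 is named in the submitters' notes. Levels and differences of near-identical paralogs are therefore uncertain.

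Each line was fitted alone in R 4.3.3 with edgeR 4.0.16 (filterByExpr, TMM, robust quasi-likelihood fit, two-sided test, Benjamini-Hochberg over all genes tested, called at an adjusted p under 0.05). The code was tested on simulated data. Alternatives were DESeq2 1.42.0, its size factors, other filters, a replicate block, a joint fit, summed SPRR2 genes, a threshold of 0.01 and each library left out. The members and the gene lists were chosen with earlier results of these data known. Named were all members, TP63, KLF4, GRHL3, OVOL1 and ZNF750, per list and line up to 3 called genes in each direction with the largest change and a mean of at least 1 CPM, and the 5 genes most like the members (log2 of CPM plus 0.5). Motifs were searched in RefSeq promoters.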

Additional observations from a re-analysis of the deposited data

Results flagged for a closer look

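In groups of 3 libraries no outlier test applies. Among the genes named, 5 regulators had opposite signs in PAAD and TNBC with no overlap between control and Ocoxin libraries in either line, and the difference between the lines was not tested for any of them. ZNF750 had log2 fold changes of -1.22 in PAAD and 0.29 in TNBC, a difference of 1.51. FOSL1 had 0.35 and -0.69, a difference of -1.04. NOTCH3 had -0.52 and 0.25, a difference of 0.77. JAG1 had -0.15 and 0.45, a difference of 0.60, and ELF3 had 0.38 and -0.20, a difference of -0.58.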

How the results depend on the processing

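The member differences in PAAD and TNBC kept their sign under every alternative that gave a value, except TGM1 in TNBC, whose sign turned in 1 of 13. As a description, 2 to 3 members were called in TNBC and 6 to 7 in PAAD with 1 library left out. The share of all genes called in those fits was not computed, and nothing is read from these counts. Among the other squamous genes, a threshold of 0.01 left 5 higher in COAD, 5 higher and 16 lower in PAAD, 0 higher in PRAD and 3 higher in TNBC. DESeq2 called 1 lower in PRAD. Without a filter 1 was lower in COAD, 3 were lower in PRAD and 9 were higher in TNBC. With 1 library left out, calls ranged from 4 to 11 higher and 0 to 1 lower in COAD, 5 to 14 higher and 18 to 30 lower in PAAD, 0 to 1 higher and 0 to 0 lower in PRAD, and 3 to 8 higher and 32 to 38 lower in TNBC. The count of 13 higher in PAAD became 5 without Ocoxin replicate 1 or Ocoxin replicate 2, and the 5 higher in TNBC became 3 without control replicate 2, Ocoxin replicate 1 or Ocoxin replicate 2 and 8 without Ocoxin replicate 3. The 11 higher in COAD became 4 without control replicate 1 or control replicate 2 and 6 without Ocoxin replicate 2. The cause was not tested.

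Replicate numbers were not taken to pair the samples, because the correlations of same-numbered libraries reached from -0.005 to 0.189 in COAD, 0.024 to 0.124 in PAAD, 0.091 to 0.407 in PRAD and 0.062 to 0.224 in TNBC. With the replicate block, 19 were higher and 2 lower in COAD, 22 higher and 36 lower in PAAD, 4 higher and 2 lower in PRAD, and 15 higher and 54 lower in TNBC, and of the 6 libraries of a line 4, 5, 5 and 4 correlated best with their own number. The block called 1 member in PRAD, TGM1, with a log2 fold change of 0.62. The share of all genes called with the block was not computed, and nothing is read from this call. Of the other values, 828 stayed close to the reported one and 115 moved by more than 1 SD or 1.5 times. The SPRR genes have few counts in TNBC and PRAD, which limits their precision there.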
